A study of Tachysurus fulvidraco x Tachysurus vachelli with 6 samples.

Results

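Transcripts of the corticosteroid receptors and of 2 genes known as glucocorticoid targets were followed in the gill of a hybrid catfish after 16 h of transport. The 4 genes were taken by symbol from the deposited table of 25792 genes. They are nr3c1 (glucocorticoid receptor), nr3c2 (mineralocorticoid receptor), fkbp5 and foxo1, each with a single row, and all 4 were among the 20771 genes with enough counts to be tested. The tissue, the second gill of the left side, came from juvenile hybrid yellow catfish bred from Tachysurus fulvidraco females and P. vachellii males. The libraries were 3 from fish transported for 16 h and 3 from untreated fish, here called controls, and both groups shared the cross, the stage and the tissue. The labels do not say whether a library holds 1 fish or several, so a p-value here reflects only the scatter between libraries, part of which may be technical.

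Cortisol is the main corticosteroid of teleost fish and is released from the interrenal tissue under stress. It enters cells, binds receptors of the nuclear receptor superfamily that are held ready by HSP90 and its partner proteins, and the bound receptor acts on genes in the nucleus. Teleost fish lack aldosterone, and cortisol is a ligand of both the glucocorticoid and the mineralocorticoid receptor. In the gill, cortisol is known for its role in the ion-transporting cells and in salt balance. FKBP5 is a peptidyl-prolyl isomerase that binds the HSP90 complex and, in mammals, lowers the receptor's affinity for hormone, and its gene is a classical receptor target there. FOXO1 is a forkhead transcription factor that insulin signalling through PI3 kinase and AKT keeps out of the nucleus.

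The libraries held 42962760 to 49066033 estimated counts after transport and 42997762 to 58495713 in the controls. The first principal component held 45.0% of the variance and separated the groups. Of the genes tested, 1389 (6.69%) passed an adjusted p of 0.05 in edgeR, which are the genes named as called: 671 (3.23%) rose after transport and 718 (3.46%) fell. That count was 3 without transport replicate 2, and all 16 called genes among the 37 tested that were named by rule lost their call in that fit. The rule in part took called genes, so 16 of 37 is not a share to set beside 6.69%. Among the marker genes, gcm2, a transcription factor gene needed for gill development in zebrafish, stood at 109.01 to 114 FPKM (fragment counts corrected for transcript length and library size) after transport and 89.2 to 93.6 FPKM in the controls, while foxi3, an ionocyte factor gene in zebrafish, was listed at 0 in 5 libraries and at 0.07 FPKM in control replicate 3. Skeletal muscle markers differed between libraries of 1 group: the 6 matched genes summed to 10.8, 35.8 and 61.0 FPKM in transport replicates 1, 2 and 3 and to 61.5, 12.9 and 11.1 FPKM in control replicates 1, 2 and 3.

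Of the 4 genes, nr3c2 and foxo1 fell, nr3c1 and fkbp5 were not called, and none was called higher. The same 2 of the 4 had groups that did not overlap. These counts stand beside 6.69% of all genes called and 32.7% of all genes without overlap, but the 4 were chosen with earlier results of these data known.

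The mineralocorticoid receptor gene nr3c2 had the lowest level of the 4 genes. Its transcripts stood at 1.18, 0.99 and 1.11 FPKM in the transport libraries and at 1.95, 2.90 and 2.13 FPKM in the controls. All 3 transport libraries lay below all 3 controls, and the spread was narrower after transport. The means were 1.09 ± 0.0961 FPKM after transport and 2.33 ± 0.505 FPKM in the controls (SD, n = 3 each), on 186 to 202 estimated counts per transport library and 349 to 646 per control. The log2 fold change was -1.10 (SE 0.23, adjusted p = 0.0378 by edgeR), which is 0.465 times the control level. The call rested on most of the libraries: it held without control replicate 1 (adjusted p = 0.0359 by edgeR), and the adjusted p was 0.0826, 0.172 and 0.127 without transport replicates 1, 2 and 3, and 0.0763 and 0.0865 without control replicates 2 and 3. As with every gene in a mixed tissue, fewer cells of a type and less RNA per cell cannot be told apart in these libraries.

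The glucocorticoid receptor gene nr3c1 was not called. It stood at 12.7, 9.02 and 8.77 FPKM after transport and at 10.4, 9.58 and 13.6 FPKM in the controls. The groups overlapped, and control replicate 3 and transport replicate 1 were the highest of the 6. The means were 10.1 ± 2.17 FPKM after transport and 11.2 ± 2.14 FPKM in the controls (SD, n = 3 each), and their log2 difference was -0.16 (SE 0.20, adjusted p = 0.666 by edgeR). Its sign turned to a value near 0 without control replicate 3, the highest library.

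Many teleosts carry a duplicated glucocorticoid receptor, and the table held a further row with that product name, LOC113654878, annotated as glucocorticoid receptor-like. It was the most abundant of the 3 receptor genes in every library. Its levels were 18.4, 16.5 and 15.9 FPKM after transport and 18.1, 29.7 and 22.4 FPKM in the controls. The groups overlapped at the lowest control, and control replicate 2 was the highest library. The log2 fold change was -0.48 (SE 0.18), with an unadjusted edgeR p of 0.0332 and an adjusted p of 0.159, so the gene was not called. Without control replicate 2 the log2 fold change was -0.28, and without control replicate 1 it was -0.66 (adjusted p = 0.0537 by edgeR). Reads of any near-identical parts could have been divided between nr3c1 and LOC113654878 in the authors' counting, so the split between them is uncertain.

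Within each library, the FPKM of the 3 receptor genes gave the balance between them. LOC113654878 held 60.4% ± 2.87 of the sum after transport and 62.8% ± 6.58 in the controls, and nr3c1 held 35.8% ± 3.06 after transport and 30.9% ± 7.12 in the controls (SD, n = 3 each). The share of nr3c2 was 3.66%, 3.73% and 4.30% after transport and 6.40%, 6.88% and 5.59% in the controls. The highest transport value lay below the lowest control value. The sum of the 3 genes was 32.2, 26.6 and 25.8 FPKM after transport and 30.5, 42.2 and 38.1 FPKM in the controls, with overlap at transport replicate 1.

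The log2 ratio of nr3c2 to nr3c1, which does not depend on how libraries are scaled, was -3.42, -3.19 and -2.98 in the transport libraries and -2.42, -1.72 and -2.68 in the controls. All transport values were below all control values. The difference of the means was -0.92, which is a ratio 0.527 times that of the controls (exact permutation test, two-sided, p = 0.1, the smallest p that 3 against 3 libraries allow). The difference kept its sign whichever library was left out, at -0.65 without control replicate 2, the library with the highest ratio, and at -1.13 without control replicate 3. The share and the ratio both use the nr3c2 values given above, so neither is separate support for the fall of nr3c2.

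**Figure D1:**
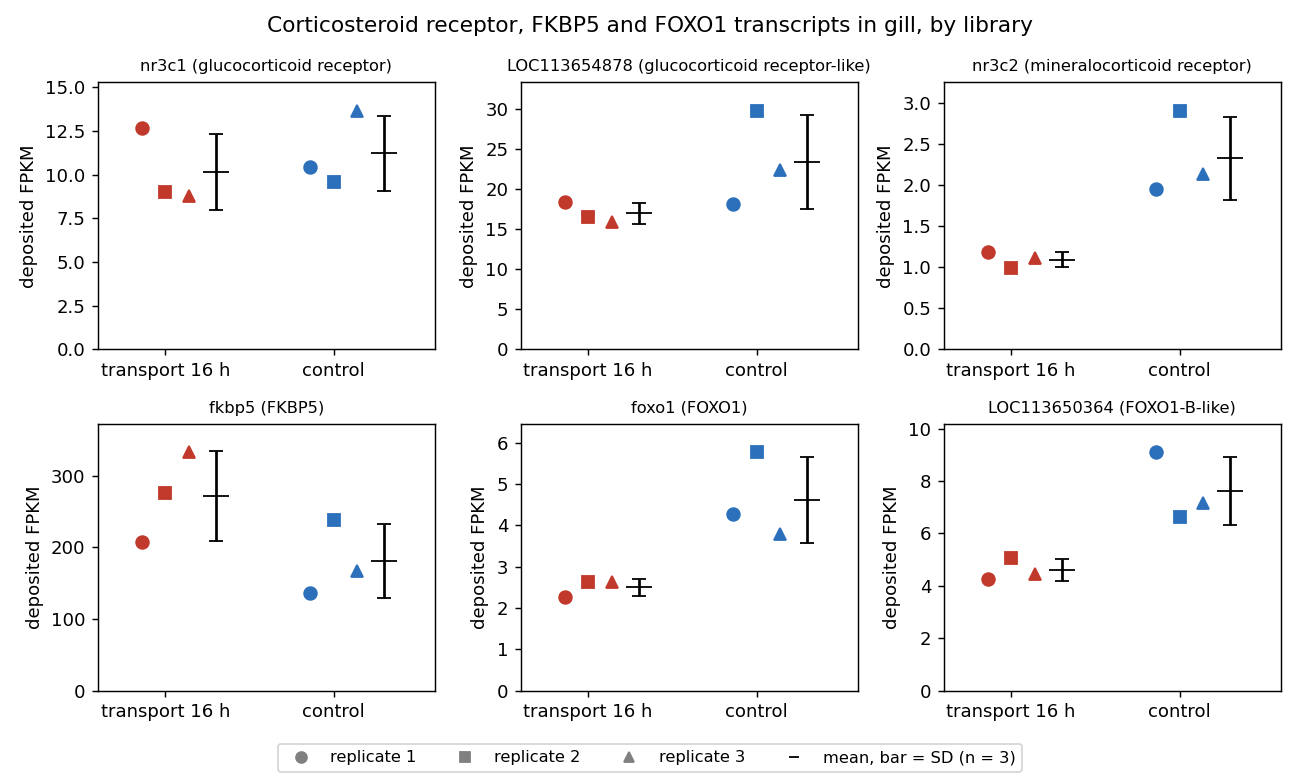
Deposited FPKM of the receptor genes, fkbp5, foxo1 and LOC113650364 in each library, with transport at 16 h left of control; symbols mark replicates 1 to 3, and the black line and bar give the group mean and SD (n = 3). The 3 transport libraries lie below all controls for nr3c2, foxo1 and LOC113650364, and the groups overlap for nr3c1, LOC113654878 and fkbp5.

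The isomerase gene fkbp5 was the most abundant of the 4 genes and was not called. It stood at 207, 276 and 333 FPKM in the transport libraries and at 137, 238 and 167 FPKM in the controls. The lowest transport library lay below the highest control, so the groups overlapped, and the other 2 transport libraries were above every control. The means were 272 ± 62.9 FPKM after transport and 181 ± 52.0 FPKM in the controls (SD, n = 3 each). The log2 fold change was 0.57 (SE 0.25, adjusted p = 0.209 by edgeR, unadjusted p = 0.0541). Without control replicate 2, the overlapping library, the log2 fold change was 0.82 with an edgeR adjusted p of 0.0952, still above the threshold.

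FKBP4 is the related isomerase that, in mammals, favours receptor binding and transport to the nucleus where FKBP5 opposes it. The gene fkbp4 was less abundant, at 21.6, 20.9 and 24.8 FPKM after transport and 21.8, 20.8 and 16.9 FPKM in the controls, and was not called (log2 fold change 0.16, SE 0.13, adjusted p = 0.511 by edgeR). The log2 ratio of fkbp5 to fkbp4 was 3.26, 3.72 and 3.75 in the transport libraries and 2.65, 3.51 and 3.31 in the controls. The groups overlapped, and the difference of 0.42 had a two-sided p of 0.3 by the exact permutation test. Without control replicate 1, the library with the lowest ratio, the difference was 0.16, and without control replicate 2 it was 0.60.

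The list of receptor chaperones, which also holds hsp90b1, hsf1, hdac6 and tsc1, genes of the wider HSP90 system, lay above 0 more often than below. The list was chosen with earlier results of these data known, so its counts are descriptions without a test. Of 20 tested, fkbp5 and fkbp4 included, 3 rose and none fell, against 3.23% and 3.46% of all genes. The 3 include hsp90b1, and 17 of the 20 had a log2 fold change above 0. Their median was 0.40, beside 0.0018 over all genes tested, and was 0.24 without control replicate 3 and 0.28 without transport replicate 3. In 10 of the 20 the groups did not overlap, against 32.7% of all genes, and in those 10 transport was the higher group. DESeq2 called 6 of the 20, all higher, where it called 1586 higher and 1750 lower of all 20771 genes. The clearest member was LOC113655582, an HSP90-alpha gene, at 35.1, 38.2 and 43.6 FPKM after transport and 10.9, 15.5 and 8.62 FPKM in the controls (log2 fold change 1.72, SE 0.22, adjusted p = 0.0131 by edgeR). Its neighbour in the table, LOC113655583, carries the product name HSP90-alpha 1 and reached at most 1.87 FPKM, and any reads shared by these genes could not be told apart. The HSP90-beta gene hsp90ab1, named after its values were seen, was far more abundant and was not called. It stood at 1132 ± 38.5 FPKM after transport and 950 ± 31.3 FPKM in the controls, without overlap (log2 fold change 0.24, adjusted p = 0.0847 by edgeR).

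The gene ahsa1, for the activator of the HSP90 ATPase, rose to 21.9 ± 2.47 FPKM after transport, against 13.6 ± 1.40 FPKM in the controls (adjusted p = 0.0398 by edgeR). The gene hsp90b1, for the HSP90 of the endoplasmic reticulum, which does not hold nuclear receptors, rose to 209 ± 7.09 FPKM after transport, against 132 ± 20.4 FPKM in the controls (adjusted p = 0.0317 by edgeR). The gene ptges3 encodes p23, the cochaperone that completes the hormone-binding form of the receptor. It stood at 91.7, 102 and 119 FPKM after transport and at 74.0, 80.9 and 59.6 FPKM in the controls, without overlap, but was not called (log2 fold change 0.53, SE 0.15, adjusted p = 0.0832 by edgeR). None of the 3 called genes held its call without transport replicate 2 or transport replicate 3. The HSP90-alpha gene held it without each of the other libraries, hsp90b1 only without control replicate 2, at 0.0177, and ahsa1 in none of the 6 such fits, at 0.0533 to 0.179.

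**Figure D2:**
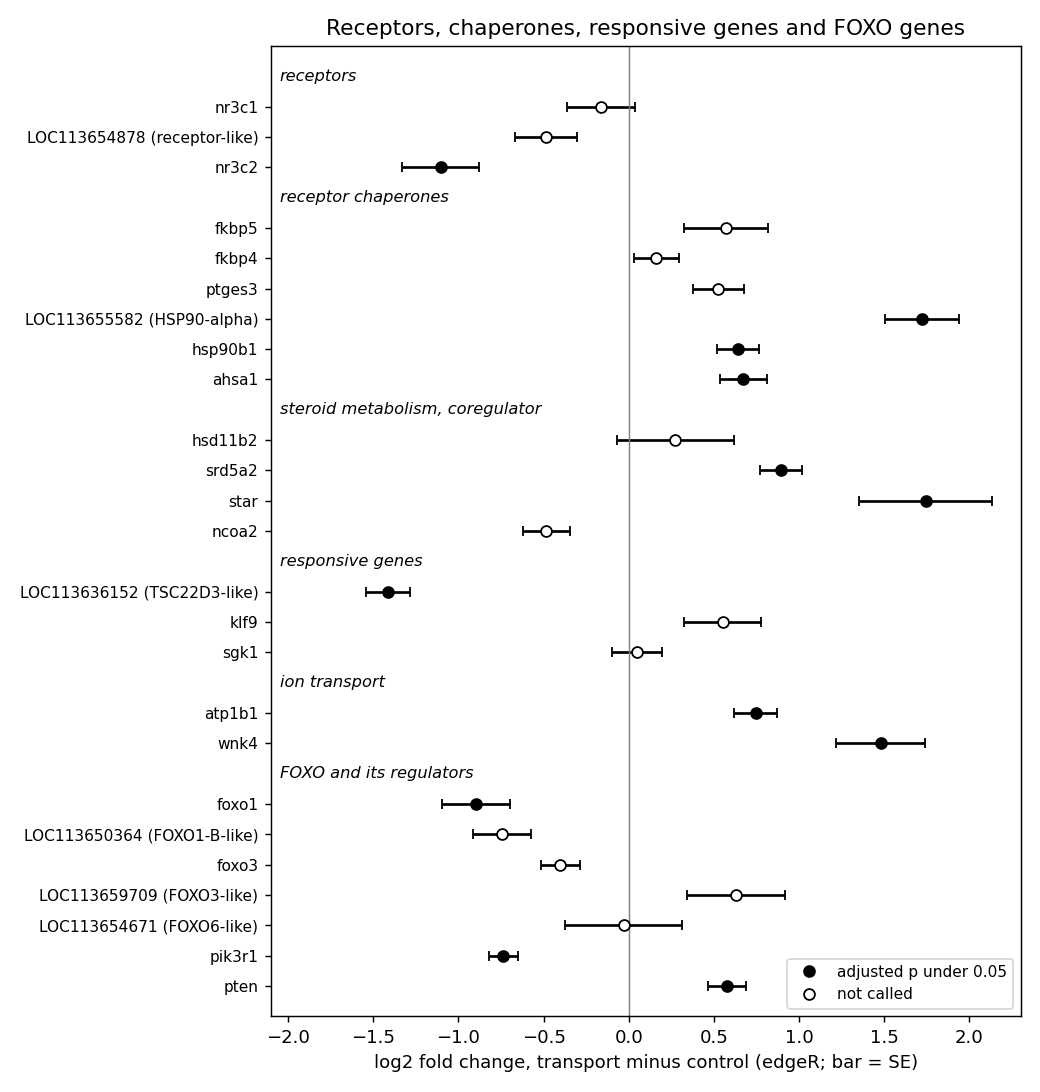
Log2 fold change, transport minus control, of the receptor genes, chaperone genes, steroid metabolism genes, responsive genes, ion transport genes and FOXO genes; bars are the SE from edgeR, and filled points have an adjusted p under 0.05. The points of nr3c2, foxo1 and the TSC22D3-like gene are filled and left of 0, and the HSP90-alpha gene LOC113655582 is filled and lies at 1.72.

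The forkhead gene foxo1 fell. It stood at 2.27, 2.63 and 2.62 FPKM in the transport libraries and at 4.28, 5.77 and 3.78 FPKM in the controls. All transport libraries lay below all controls, with control replicate 2 the highest. The means were 2.51 ± 0.205 FPKM after transport and 4.61 ± 1.04 FPKM in the controls (SD, n = 3 each), a log2 difference of -0.90 (SE 0.20, adjusted p = 0.0458 by edgeR). This call was lost whichever library was left out: the edgeR adjusted p was 0.115, 0.176 and 0.138 without transport replicates 1, 2 and 3, and 0.0583, 0.0750 and 0.0686 without control replicates 1, 2 and 3. The log2 fold change stayed between -1.02 and -0.70 in those fits.

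The table held 6 more genes of the FOXO family, of which 5 could be tested. LOC113650364 is annotated as forkhead box protein O1-B-like, and its sequence was not compared with that of foxo1. LOC113650364 stood at 4.26, 5.08 and 4.47 FPKM after transport and at 9.10, 6.61 and 7.16 FPKM in the controls, again with all transport libraries below all controls. Its log2 fold change was -0.74 (SE 0.17) with an edgeR adjusted p of 0.0504, just over the threshold. It was below the threshold with RLE factors (0.0481), upper-quartile factors (0.0474), counts divided by 4 (0.0443) and DESeq2 (0.00303). It was above it with limma or without a filter (0.0558 to 0.0597) and whichever library was left out (0.0580 to 0.166). Any reads shared by LOC113650364 and foxo1 could have been divided between them.

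The gene foxo3, for a related factor of starvation and stress responses, stood at 9.46, 8.33 and 9.50 FPKM after transport and 13.2, 11.8 and 10.6 FPKM in the controls. The groups did not overlap, but the gene was not called (log2 fold change -0.40, SE 0.12, adjusted p = 0.0847 by edgeR). A FOXO3-like gene, LOC113659709, lay the other way, at 2.74, 1.74 and 1.65 FPKM after transport and 1.38, 1.59 and 0.94 FPKM in the controls (log2 fold change 0.63, SE 0.29, adjusted p = 0.229 by edgeR), and its log2 fold change was 0.37 without transport replicate 1. The gene foxo4, which the rule did not name but which completes the family, stood at 7.48, 6.89 and 7.89 FPKM after transport and 7.13, 6.89 and 6.85 FPKM in the controls, with overlap (log2 fold change 0.08, adjusted p = 0.687 by edgeR). The FOXO6-like gene LOC113654671 stayed between 0.34 and 0.59 FPKM in all 6 libraries. A further FOXO3-like gene, LOC113644264, was listed at 0 in 4 of them and was not tested. Across the family, foxo1 was the 1 called gene of 6 tested, against 6.69% of all genes. Because foxo1 was itself chosen with earlier results of these data known, this count adds nothing about the family. The groups did not overlap in 4 of the 6, against 32.7% of all genes. Transport was lower in 3 of these, foxo1 and LOC113650364 among them, and higher in 1. As this count too includes foxo1, it is a description only.

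Among 39 tested genes of the FOXO family, its regulators and its targets, 1 rose and 2 fell, a share near the 6.69% of all genes, so the list as a whole held about as many called genes as the background. Its median log2 fold change was -0.09. Beside foxo1, pik3r1, for the regulatory subunit of PI3 kinase, fell to 26.1, 26.5 and 24.6 FPKM after transport, against 42.4, 44.4 and 40.2 FPKM in the controls (log2 fold change -0.74, SE 0.08, adjusted p = 0.0107 by edgeR). The gene pten, for the phosphatase that reverses the PI3 kinase reaction, rose to 11.51, 9.45 and 10.2 FPKM, against 6.76, 7.13 and 6.73 FPKM in the controls (log2 fold change 0.58, SE 0.11, adjusted p = 0.0322 by edgeR). Both genes changed without overlap between the groups. The kinase genes akt1 and akt2, which act between PI3 kinase and FOXO1, were named after their values were seen. Both lay lower in all transport libraries than in all controls, and neither was called (log2 fold changes -0.35 and -0.20, adjusted p = 0.209 and 0.263 by edgeR). The edgeR adjusted p of pik3r1 was 0.0924 without transport replicate 2 and 0.0519 without transport replicate 3, and it was called without each other library. That of pten was 0.0562 to 0.123 whichever library was left out.

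Genes known to respond to glucocorticoids lay on both sides of 0. Of 30 tested, none rose and 2 fell, against 3.23% and 3.46% of all genes tested, and 11 log2 fold changes were positive and 19 negative (median -0.23). The median was -0.13 without transport replicate 3, and -0.34 without control replicate 1. The transport libraries lay wholly above the controls in 5 of the 30 and wholly below in 10. Over all 20771 genes tested, those counts were 3663 and 3120. The 5 are thus near the share in all genes and the 10 are above it, in a list chosen with earlier results of these data known. DESeq2 called 8 of the 30 lower, where it called 1750 of all 20771 genes lower. The edgeR fits called 4 lower without control replicate 1, where 839 of all 21372 genes were called lower. They called none without transport replicate 2, where only 3 of all 21323 genes were called. Without control replicate 2 they called 1 lower and 1 higher, where 464 of all 21381 genes were called lower and 477 higher. Many of these genes were found in mammalian cells, and some of them have other inducers.

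The 2 that fell were foxo1 and LOC113636152, annotated as TSC22 domain family protein 3-like. TSC22D3, also known as GILZ, is a leucine zipper protein that is strongly induced by glucocorticoids in mammals and restrains inflammatory transcription factors. The gene stood at 202, 185 and 153 FPKM in the transport libraries and at 422, 503 and 493 FPKM in the controls. The groups were far apart relative to their spread. The means were 180.1 ± 24.6 FPKM after transport and 473 ± 44.3 FPKM in the controls, a log2 difference of -1.41 (SE 0.13, adjusted p = 0.00613 by edgeR). Among the single libraries left out, the call was lost only without transport replicate 2, at an edgeR adjusted p of 0.0685.

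Other well-known responsive genes were not called. The Krueppel-like factor gene klf9, a direct receptor target in several vertebrates, stood at 9.93, 10.9 and 11.7 FPKM after transport and at 5.26, 9.77 and 6.86 FPKM in the controls (log2 fold change 0.55, SE 0.23, adjusted p = 0.191 by edgeR). Like fkbp5, klf9 had its highest control value in control replicate 2 and its lowest value of all in control replicate 1, but its groups did not overlap. The kinase gene sgk1, a corticosteroid-induced regulator of ion transport, was at 13.9, 11.4 and 10.8 FPKM after transport and 9.99, 12.8 and 11.6 FPKM in the controls (log2 fold change 0.05, SE 0.15, adjusted p = 0.878 by edgeR), and its sign turned without transport replicate 1 or control replicate 1. Further Sgk1-like genes, LOC113662830 and LOC113658296, were named after their values were seen. LOC113662830 had means of 26.0 FPKM after transport and 31.0 FPKM in the controls, with overlap. LOC113658296 had means of 0.603 FPKM after transport and 0.853 FPKM in the controls, without overlap. Neither was called (log2 fold changes -0.28 and -0.51, adjusted p = 0.577 and 0.466 by edgeR).

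The following genes of the list were named after their values were seen. The gene dusp1, for a phosphatase that ends MAP kinase signals, was at 118, 81.5 and 49.8 FPKM after transport and at 109, 240.2 and 206 FPKM in the controls, with overlap (adjusted p = 0.111 by edgeR). The gene nfkbia, for the inhibitor of NF-kappa-B, was at 189, 192 and 211 FPKM after transport and at 241, 274 and 325 FPKM in the controls, without overlap (adjusted p = 0.0622 by edgeR). The gene ddit4, for an inhibitor of mTOR signalling, was at 331, 360.1 and 381 FPKM after transport and at 463, 464 and 417 FPKM in the controls, also without overlap (adjusted p = 0.0745 by edgeR). A period 2-like clock gene, LOC113640397, was at 7.15, 6.24 and 5.97 FPKM after transport and 8.53, 13.2 and 10.51 FPKM in the controls (adjusted p = 0.0516 by edgeR). Their log2 fold changes were -1.18 for dusp1, -0.52 for nfkbia, -0.34 for ddit4 and -0.76 for LOC113640397. Another period 2-like gene, LOC113640651, overlapped between the groups (log2 fold change -0.21, adjusted p = 0.778 by edgeR). A period 1-like gene, LOC113635106, lay lower after transport without overlap and was not called (log2 fold change -0.40, adjusted p = 0.0587 by edgeR). Other members lay above 0 and were not called either. Beside klf9, the transport libraries lay wholly above the controls for errfi1 (log2 fold change 0.37), cdkn1a (0.57), pdk4 (0.29) and angptl4 (0.26), and zbtb16 had 0.82 with overlap between the groups (edgeR adjusted p of 0.142 to 0.339 for these 5).

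Of 10 tested genes of corticosteroid synthesis and breakdown, 2 rose and none fell, against 3.23% and 3.46% of all genes. This list too was chosen with earlier results of these data known. Its median log2 fold change was -0.13, which turned to 0.04 without control replicate 2 and 0.17 without control replicate 3. The gene hsd11b2 encodes the enzyme that turns cortisol into inactive cortisone. It stood at 30.7, 54.0 and 82.0 FPKM after transport and at 52.1, 34.8 and 49.6 FPKM in the controls, so that the transport libraries held both the lowest and the highest value (log2 fold change 0.27, SE 0.34, adjusted p = 0.678 by edgeR). Its sign turned without transport replicate 3. The steroid 5-alpha-reductase gene srd5a2 rose to 35.0, 31.4 and 29.2 FPKM after transport, against 17.3, 18.6 and 15.03 FPKM in the controls (log2 fold change 0.89, SE 0.12, adjusted p = 0.0161 by edgeR). The gene star is for the protein that carries cholesterol into mitochondria at the start of steroid synthesis. It rose to 1.29, 1.38 and 1.29 FPKM after transport, against 0.22, 0.42 and 0.51 FPKM in the controls (adjusted p = 0.0467 by edgeR). Its level was low, with 34, 78 and 70 estimated counts in the controls. Without a filter on low counts its adjusted p was 0.0507 by edgeR. No gene of this list was called when any of the 3 transport libraries was left out, with an adjusted p of 0.0514 to 0.102 for srd5a2 and 0.102 to 0.183 for star, and star was called only without control replicate 1.

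None of 19 tested coregulators of nuclear receptors was called by edgeR (median log2 fold change -0.06). Of these 19, 4 had an unadjusted edgeR p under 0.05, beside 25.0% of all genes tested. DESeq2 called 2 of the 19, both lower, where it called 3336 of all 20771 genes in either direction. The member with the smallest p was ncoa2, for a coactivator that the glucocorticoid receptor recruits, at 2.99, 2.83 and 3.03 FPKM after transport and 4.43, 3.49 and 4.31 FPKM in the controls, without overlap (log2 fold change -0.48, SE 0.14, adjusted p = 0.0851 by edgeR).

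In the list of mineralocorticoid and ion transport genes, 2 of 15 tested rose and none fell, against 3.23% and 3.46% of all genes. That list was also chosen with earlier results of these data known. Its median log2 fold change was 0.14, which turned to -0.09 without transport replicate 1. The gene atp1b1, for the beta subunit of the sodium pump, rose to 553, 663 and 738 FPKM after transport, against 379, 359 and 414 FPKM in the controls (log2 fold change 0.75, SE 0.13, adjusted p = 0.0244 by edgeR). The gene wnk4, for a kinase that sets salt cotransport in the mammalian kidney, rose to 1.91, 1.67 and 1.17 FPKM, against 0.49, 0.68 and 0.51 FPKM in the controls (log2 fold change 1.48, SE 0.26, adjusted p = 0.0268 by edgeR). Neither was called without transport replicate 2, transport replicate 3 or control replicate 3, at an adjusted p of 0.0573 to 0.138. In addition, wnk4 lost its call without transport replicate 1 (0.0711) and atp1b1 without control replicate 2 (0.0529).

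**Figure D3:**
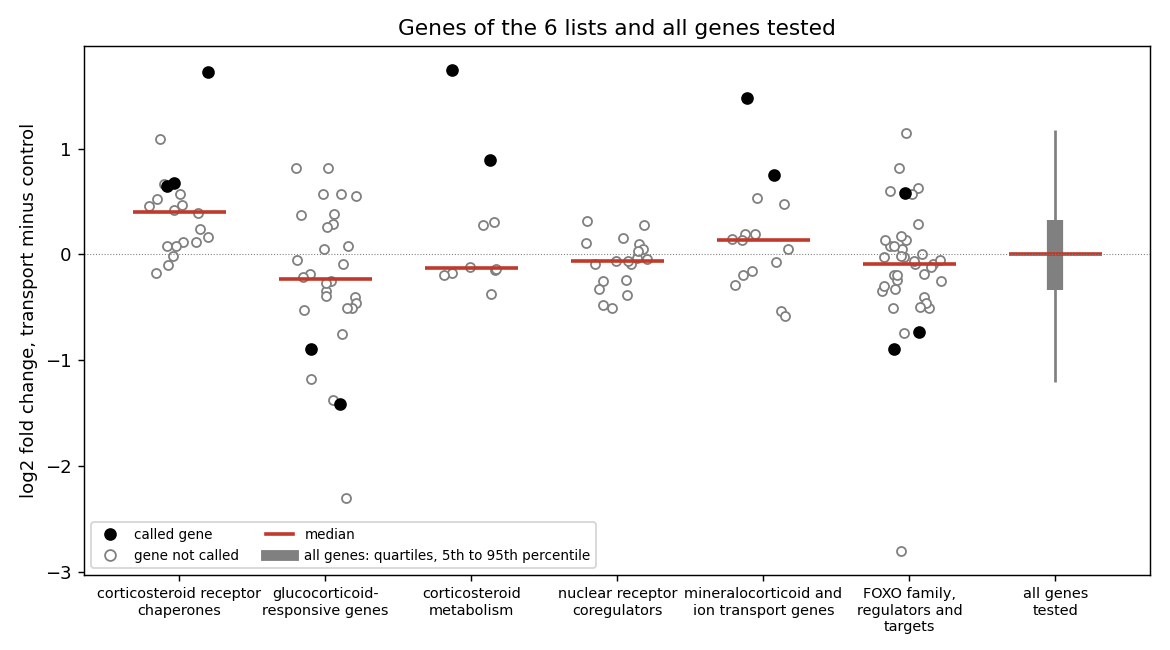
Log2 fold change, transport minus control, of each tested gene in the 6 lists, with red lines at the medians; filled points are called genes, and the grey bar gives the quartiles and the 5th to 95th percentiles of all genes tested. The median of the chaperone list, 0.40, lies above those of the other 5 lists, which lie between -0.23 and 0.14.

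Marker genes of several cell types also moved between the groups, and their calls stand beside 3.23% of all genes called higher and 3.46% called lower. The 7 matched B-cell genes summed to 49.4 to 50.8 FPKM after transport and 65.0 to 75.3 FPKM in the controls, and 4 of the 7 fell. The 9 genes of endothelium and pillar cells summed to 68.2 to 92.3 FPKM after transport and 92.5 to 126 FPKM in the controls, and 1 of them, flt4, fell. The 8 ionocyte genes summed to 778 to 993 FPKM after transport and 567 to 649 FPKM in the controls, most of it from atp1b1. The 1 called higher was atp1b1 itself, which is also in the ion transport list. Of the 7 ionocyte genes tested, 4 had a log2 fold change above 0 and 3 below. The 7 epithelial genes summed to 1359 to 1448 FPKM after transport and 1346 to 2002 FPKM in the controls, with 1 higher and 1 lower. The 2 goblet-cell genes matched of 8 sought summed to 97.7 to 135 FPKM after transport and 243 to 442 FPKM in the controls. Of these 2, agr2 fell, and galnt7 had a log2 fold change above 0 without a call. The 7 genes of macrophages and neutrophils summed to 178 to 194 FPKM after transport and 119 to 159 FPKM in the controls, and the 2 of erythrocytes to 44.3 to 56.8 FPKM after transport and 24.7 to 48.7 FPKM in the controls, with 1 called higher in each. The 5 T-cell genes (129 to 226 FPKM after transport and 115 to 225 FPKM in the controls) and the 6 muscle genes overlapped between the groups and had no call. No marker was at 0 in all 6 libraries. The part of any cell type in the levels of nr3c2, foxo1 or fkbp5 was not tested.

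The genes of most similar pattern were taken by the Pearson correlation of log2 CPM over the 6 libraries, among 7165 genes with a symbol and a mean of at least 2 FPKM. They are the top 3 of 7165 values for each gene, over 6 libraries that also share their scaling, so these are descriptions without a test. For nr3c2 they were cenpi (r = 0.996, rho = 1), melk (r = 0.996, rho = 0.943) and mcm4 (r = 0.994, rho = 1), which encode a centromere protein, a mitotic kinase and a subunit of the replicative helicase. For foxo1 they were mcm2, another helicase subunit (r = 0.994, rho = 0.943), pdgfrl (r = 0.994, rho = 0.943) and ralgapb (r = 0.994, rho = 0.943). These 6 genes were picked for their likeness to 2 genes that fell, so falls among them follow from that choice and are no support. With that limit, cenpi, melk, mcm4 and mcm2 fell, beside 3.46% of all genes. Their log2 fold changes were -0.83, -0.88, -0.97 and -0.94, with edgeR adjusted p of 0.0268, 0.0457, 0.0208 and 0.0314. None of the 4 held its call without any of the transport libraries or control replicate 3. Without control replicate 2, cenpi and melk were not called either.

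For fkbp5 the 3 genes were atp5f1b and atp5f1e, for the beta and epsilon subunits of mitochondrial ATP synthase (r = 0.998 and 0.996), and tars, for threonyl-tRNA synthetase (r = 0.995). All 3 ranked the 6 libraries in the same order as fkbp5 (rho = 1 for each), and none was called. For nr3c1 they were eva1a (r = 0.973, rho = 0.829), dab2ip (r = 0.971, rho = 0.943) and tespa1 (r = 0.970, rho = 1), again without a call.

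**Figure D4:**
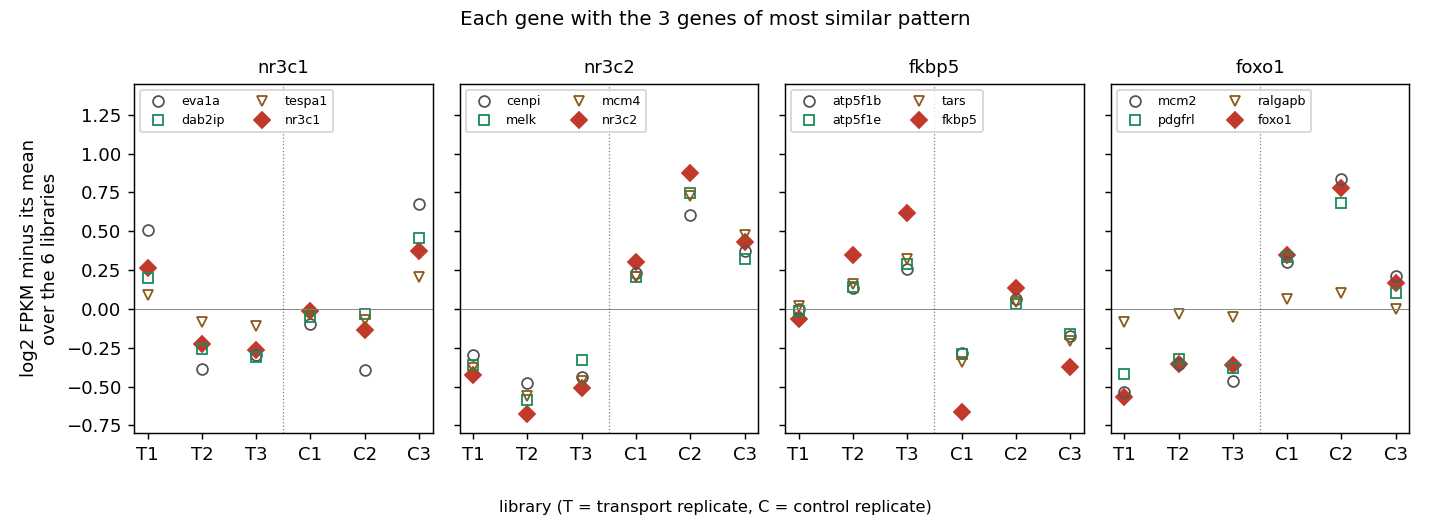
Log2 FPKM minus its mean over the 6 libraries for each of the 4 genes (red diamonds) and the 3 genes of most similar pattern (open symbols), with transport replicates T1 to T3 left of control replicates C1 to C3. The groups separate for nr3c2 and foxo1, whereas nr3c1 is highest in C3 and T1 and fkbp5 runs from C1, the lowest, to T3, the highest.

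On the scaffolds as the deposited table gives them, nr3c1 spans NW_020847824.1 from 499867 to 538581, nr3c2 spans NW_020847770.1 from 687005 to 804197, fkbp5 spans NW_020848416.1 from 10730101 to 10741497 and foxo1 spans NW_020847785.1 from 6559563 to 6590120. All 4 are on the minus strand. Their genome build was not given in the sources used here. LOC113654878 lies on NW_020847963.1 from 1654808 to 1698051 and LOC113650364 on NW_020847888.1 from 2727496 to 2749335. By these positions, none of these 6 genes overlapped another gene of the table. Whether reads of other genes entered their counts was not tested.

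Across 14 other ways of processing, the direction of nr3c2, fkbp5 and foxo1 did not change. The log2 fold change of nr3c2 ran from -1.23 to -0.66, its smallest size being on the log2(FPKM + 1) scale, which understates the change of low genes. That of foxo1 ran from -1.02 to -0.66 and that of fkbp5 from 0.39 to 0.82, with edgeR, limma or DESeq2 adjusted p of 0.0952 to 0.488 for fkbp5. For nr3c1 the values ran from -0.35 to 0.0090 and were not called in any of them.

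**Figure D5:**
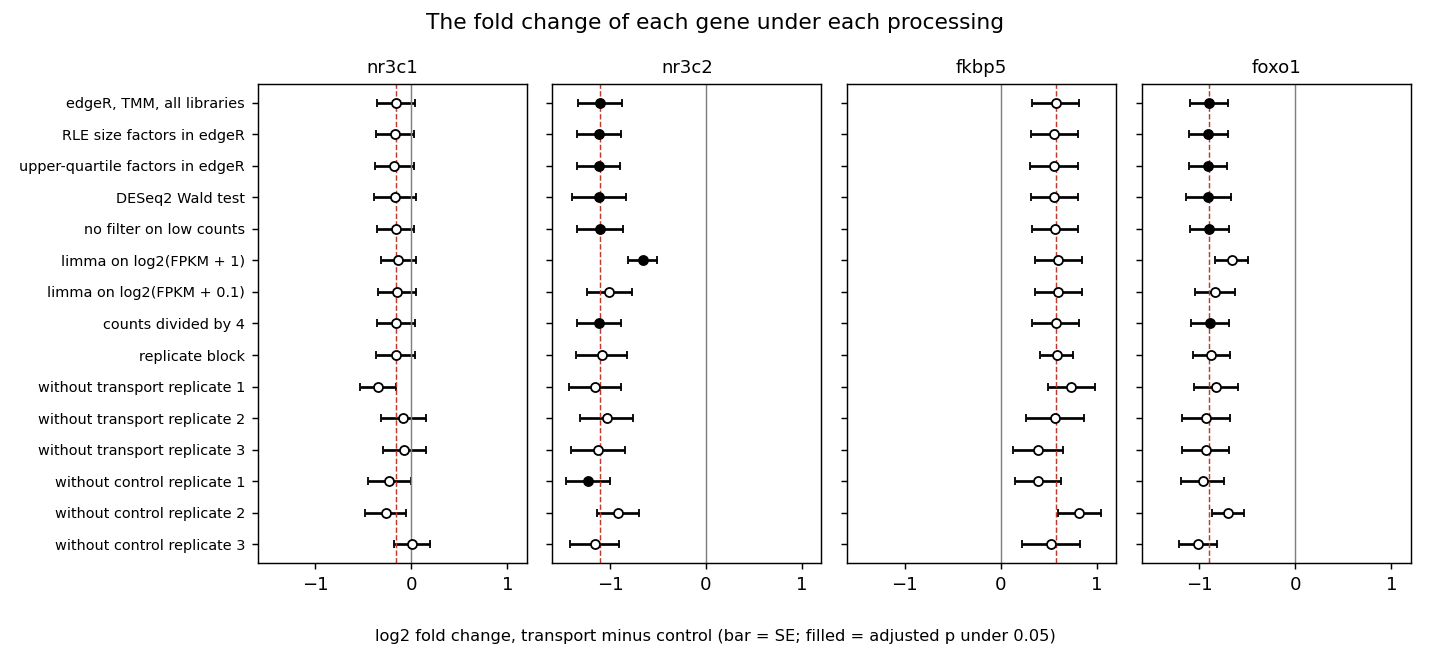
Log2 fold change, transport minus control, of the 4 genes under each way of processing (rows), with SE bars; filled points have an adjusted p under 0.05, and the dashed red line marks the edgeR value with TMM scaling and all libraries. The values of nr3c2 and foxo1 stay left of 0 in all rows while their calls come and go, those of fkbp5 stay right of 0 without a call, and those of nr3c1 lie near 0.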

How the data were processed

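RNA was measured in 6 gill libraries. HISAT and StringTie are the tools in the submitters' processing notes, without versions. The genome build was not given in the sources used here. Per the file headers, the authors deposited FPKM and counts for each gene and library. The deposited counts are whole numbers and were treated as estimated counts, because the value 4 was several times as frequent as its neighbours (in control replicate 1, 427 genes against 113 at 3 and 81 at 5), as if each fragment added 4, so counting error is larger than the totals show.

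Transport was compared with control with edgeR 4.0.16 (R 4.3.3): filterByExpr (minimum count 10, minimum total 15), TMM, quasi-likelihood F test without covariates, two-sided, and Benjamini-Hochberg adjustment over 20771 genes at 0.05. The SE was derived from F (absolute log2 fold change over its root). Ratios of FPKM were tested with exact permutation (scipy 1.17.1). DESeq2 1.42.0 and limma 3.58.1 were alternatives.

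The 4 genes and the 6 lists were chosen with earlier results of these data known. Lists were matched by symbol, with a or b copies, and locus numbers by product name. The TSC22D3-like and period-like genes entered their list by product name. Named genes were the 4, receptor and FOXO genes by product, a set of well-known partners and targets (of which tsc22d3 and per1 matched no symbol), up to 4 called members of each list or the member with the smallest p, and 3 genes of similar pattern for each. No sequence is shown, since no sequence table was used here.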

Additional observations from a re-analysis of the deposited data

How the results depend on the processing

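The number of called genes, 1389, was 3336 with DESeq2 and from 3 to 1498 when 1 library was left out, namely 399, 3 and 162 without transport replicates 1, 2 and 3, and 1498, 941 and 379 without control replicates 1, 2 and 3. With a replicate block it was 14. The labels do not say whether equal numbers mark a shared tank or day. To look for pairing, each gene's group mean was subtracted from its log2 CPM, and the remainders were correlated across genes between transport and control libraries. The correlations of same-numbered libraries were -0.07, -0.03 and -0.04, and none correlated best with its own number. Those of the other pairs were -0.03 to 0.06. The subtraction makes the covariances of all pairs sum to 0, and all values lay too near 0 to decide whether the numbers pair the libraries. The log2 fold change of nr3c2 lost its call at -1.01 with limma on log2(FPKM + 0.1) and at -1.08 with the replicate block, and ran from -1.23 to -0.91 with a library left out. That of foxo1 lost it at -0.66 and -0.83 with limma on log2(FPKM + 1) and log2(FPKM + 0.1) and at -0.88 with the replicate block, and ran from -1.02 to -0.70 with a library left out. For the log2 ratios, a replicate block cannot change the difference of the means, which was -0.92 for nr3c2 to nr3c1 and 0.42 for fkbp5 to fkbp4. With the block, the two-sided p of the exact permutation test within replicate numbers was 0.25 for each ratio. That is the smallest p that 3 pairs allow, so it cannot weigh 1 ratio against the other.

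Some uncalled genes changed sign when a library was left out: nr3c1 (-0.35 to 0.0090), sgk1 (-0.067 to 0.13), hsd11b2 (-0.13 to 0.57), eva1a (-0.49 to 0.22), tespa1 (-0.15 to 0.0080) and LOC113654671 (-0.24 to 0.13, and 0.0058 with limma on log2(FPKM + 0.1)). Of the 37 named genes tested, 16 were called. The naming rule took called genes from each list, so this count is not a share to set beside all genes. The number called was 17 with RLE or upper-quartile factors or with counts divided by 4, 21 with DESeq2 and 15 without a filter. It was 14 with either limma fit and 0 with the replicate block or without transport replicate 2. Without transport replicate 2 the edgeR adjusted p of the 16 ran from 0.0685 to 0.193. The number called was 4 and 1 without transport replicates 1 and 3, and 12, 8 and 4 without control replicates 1, 2 and 3. The cause of these losses was not tested.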
